A study of Mus musculus with 2 samples.

Results

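The Hox genes are the 39 homeobox genes of the mouse HoxA, HoxB, HoxC and HoxD clusters, and all 39 were found, by symbol, among the 17260 mRNA genes of the deposited count table. They number 11 in HoxA, 10 in HoxB, 9 in HoxC and 9 in HoxD. Messenger RNA was measured in mouse embryonic fibroblasts (MEFs), which are connective tissue cells grown out of minced embryos. There was 1 library of wild-type (WT) cells and 1 library of cells of the genotype Ahi1-/-, both of strain C57BL/6, prepared at embryonic day 13.5 and grown in DMEM with 10% fetal bovine serum. Ahi1 encodes a protein at the base of the primary cilium. Which part of the gene was removed, how many embryos were used, which tissues were left in the minced embryo and how often the cells were passaged is not stated in the labels.

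Hox proteins are transcription factors that bind DNA through a homeodomain and tell cells where along the body axis they lie. Genes with the same number in different clusters (paralogues) descend from a common ancestor, and low numbers lie at the end of a cluster that is switched on early and towards the head, high numbers at the end that is switched on late and towards the tail and the limb tips. Paralogues 1 to 3 serve the hindbrain and neck, 4 to 8 the neck and trunk, and 9 to 13, the relatives of the fly gene Abdominal-B, the lower trunk, limbs and genital region. Cultured fibroblasts are known to keep much of the Hox pattern of the site they came from.

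The WT library held 19067504 expected counts and the library labelled Ahi1-/- 20820756. Levels of different genes are given in TPM, which is per transcript length, and ratios come from counts after scaling the libraries (TMM). Each ratio is the library labelled Ahi1-/- over WT, with an exact 95% interval that covers counting error only. With 1 library a genotype there is no replicate and no test, so every difference compares these libraries and not the genotypes. Ahi1 itself had 410 and 370 counts (log2 ratio -0.16, interval -0.37 to 0.05). Its level therefore gives no check of the labels, and directions rest on the column heads CON and EXP being control and experimental. In bulk RNA, fewer cells of a type and less RNA per cell cannot be told apart.

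The labelled cell type was checked against its markers. All 11 fibroblast markers were present in both libraries, from collagen I to Vim, with a summed level of 11535 TPM in WT and 23233 TPM in the library labelled Ahi1-/-. Of the 11, 8 were higher there and S100a4 was lower, with Thy1 at 258 and 20631 counts, Lum at 71 and 3284 and Pdgfra at 795 and 6265. The libraries also differed in markers of other cells. Cartilage markers (10 of 10 present in both) summed to 1075 and 61.2 TPM and red blood cell markers (9 of 10 in the table) to 1369 and 20.9 TPM, both higher in WT, with Hba-a2 and Hbb-y at 0 in the other library. Skeletal muscle markers (5 of 9 in the table, with Myh3 at 0 in WT) summed to 3.87 and 47.1 TPM, of which desmin (Des) made up 2.97 and 44.95 TPM. Neural markers (10 of 11, with Elavl4 and Pax6 at 0 in WT) summed to 49.5 and 122 TPM, of which Tubb3 made up 27.06 and 85.27 TPM. Of the neural markers, 3 were higher and Sox2 was lower (83 and 10 counts). Epithelial markers (7 of 8, with Krt5 and Cldn4 at 0 in WT) summed to 17.9 and 42.9 TPM. Leukocyte markers (8 of 8) summed to 35.5 and 52.5 TPM, of which Lyz2 made up 10.21 and 34.2 TPM. Cd14 was lower (13.18 and 5.77 TPM). The median log2 ratio of the leukocyte markers was -0.17, with 4 above 0 and 4 below. Endothelial markers were near 0 in both libraries (2.21 and 1.56 TPM over 8 genes). The part these cells had in the Hox values was not tested.

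The Hox genes as a family were expressed at similar summed levels in both libraries, but by different members. All 39 together summed to 645 TPM in WT and 548 TPM in the library labelled Ahi1-/-. In WT, 21 members reached 1 TPM, and in the other library 37 did. The members under 1 TPM in WT numbered 18, and 16 of them were at 1 TPM or more in the library labelled Ahi1-/-, where 21.3% of all genes under 1 TPM in WT did the same. Of the 21 at 1 TPM or more in WT, 0 went the other way, against 3.51% of all genes at 1 TPM or more in WT. Hoxb1 (0 and 1 counts) and Hoxd1 (0 and 2 counts) were at or under the floor of 3 counts in both libraries and are given no ratio.

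**Figure D1:**
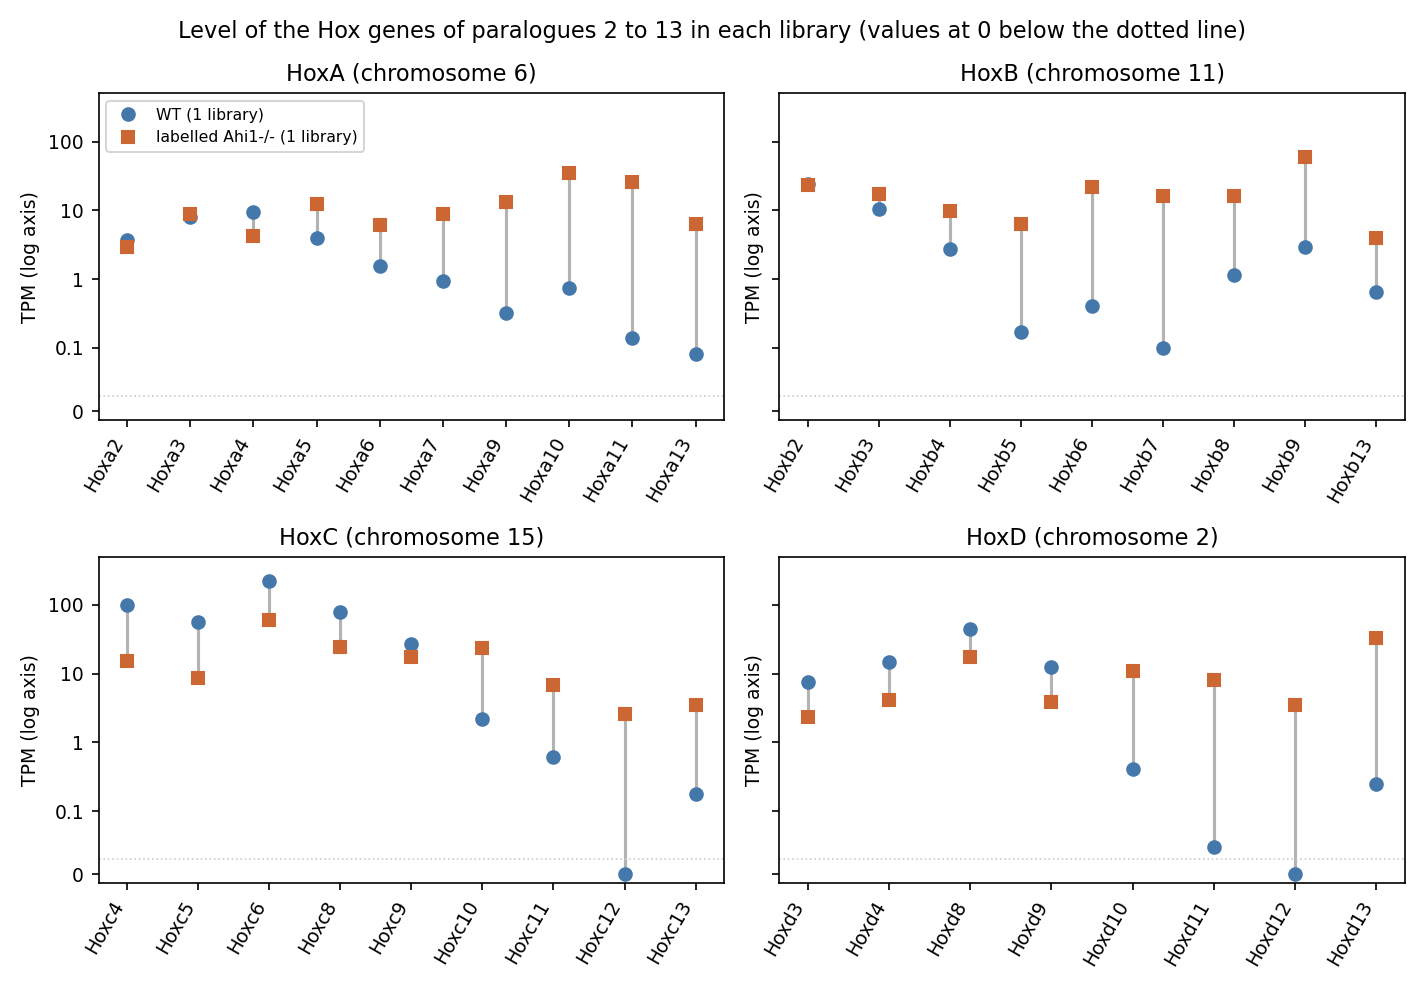
Level of the Hox genes of paralogues 2 to 13 in TPM (log axis) in the WT library (circles) and the library labelled Ahi1-/- (squares), by cluster and paralogue number, with values of 0 drawn below the dotted line. The squares lie above the circles from Hoxa5 to Hoxa13 and in HoxB from Hoxb3 on, below them from Hoxc4 to Hoxc9 and Hoxd3 to Hoxd9, and above them again from paralogue 10 on.

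A member was counted as higher or lower when its ratio reached 2-fold in either direction and its larger count was 50 or more. The minimum was met by 35 of the 39 members, and the other 4 were Hoxb1, Hoxd1, Hoxb13 and Hoxc12. Of the 35, 20 were higher in the library labelled Ahi1-/-, where 16.0% of the 12075 genes with the same minimum were higher. Another 9 were lower, where 10.3% of genes were lower, and the remaining 6 differed by less. At 8-fold or more, 17 of the 35 were higher, against 5.76% of all genes. Over the 37 members with at least 10 counts in both libraries together, the median log2 ratio was 2.57, beside -0.01 over all 14485 such genes.

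The direction differed by cluster and by paralogue number. For paralogues 4 to 9, the members of HoxA and HoxB were higher in the library labelled Ahi1-/- in 10 of 11 cases, with Hoxa4 lower, while those of HoxC and HoxD were lower in 7 of 8, with Hoxc9 within 2-fold. For paralogues 10 to 13, all 12 members of all clusters had a ratio above 0, and the 10 with the minimum count were each at least 8-fold higher. Of the 6 members of paralogues 1 to 3 with the minimum count, Hoxd3 was lower. The other 5 lay within 2-fold, as did 8892 of all 12075 genes with that minimum. Summed over these classes, HoxA and HoxB paralogues 4 to 9 held 23.7 TPM in WT and 174 TPM in the other library, HoxC and HoxD paralogues 4 to 9 held 559 and 153 TPM, and paralogues 10 to 13 held 5.29 and 163 TPM. Summed cartilage markers (1075 and 61.2 TPM) and red blood cell markers (1369 and 20.9 TPM) were lower, as was the sum of HoxC and HoxD paralogues 4 to 9. Summed fibroblast (11535 and 23233 TPM), skeletal muscle (3.87 and 47.1), neural (49.5 and 122) and epithelial markers (17.9 and 42.9) were higher. So were the sums of HoxA and HoxB paralogues 4 to 9 and of paralogues 10 to 13. The skeletal muscle sum was mostly Des and the neural sum mostly Tubb3, so neither stands for its whole list. The part of these marker lists was not tested. The class limits at 9 and 10 were drawn after the values were seen.

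**Figure D2:**
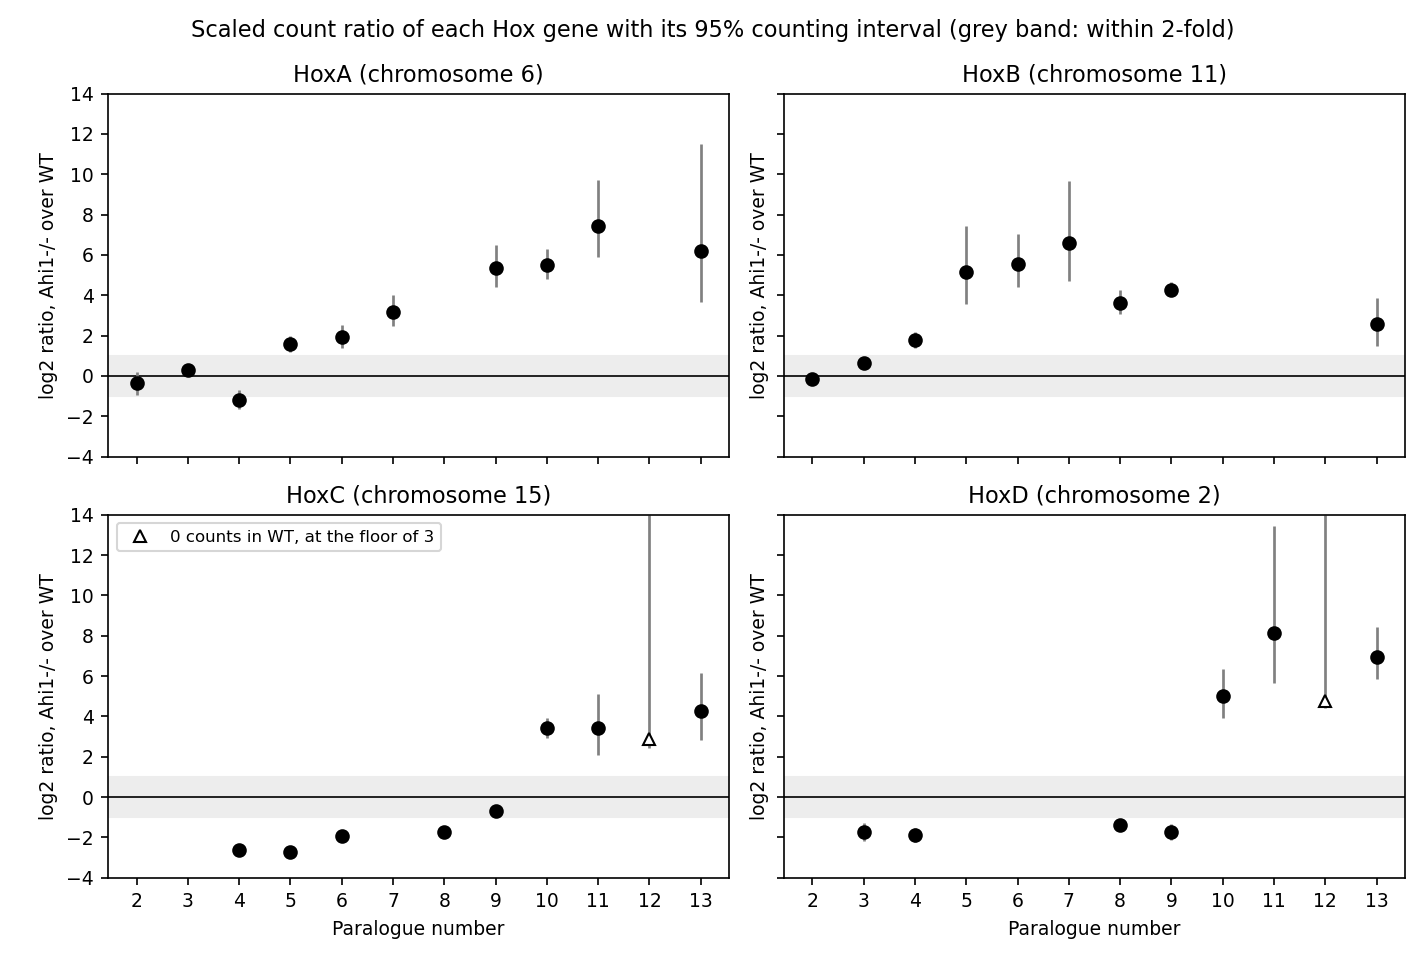
Log2 ratio of scaled counts, library labelled Ahi1-/- over WT, against paralogue number in each cluster, with 95% counting intervals as vertical lines and the range within 2-fold in grey. Open triangles are genes with 0 counts in WT, whose intervals have no upper end, and paralogue 1 is left out; HoxC and HoxD step from below 0 at paralogue 9 to above 0 at paralogue 10.

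In HoxA, Hoxa2 and Hoxa3 lay within 2-fold and the ratio grew towards the posterior end. Hoxa2, which patterns the second pharyngeal arch, had 59 counts in WT and 46 in the other library. Hoxa3, which acts in thymus and parathyroid formation, had 224 and 278. The interval of Hoxa2 spans a ratio of 1, and that of Hoxa3 lies just above it (log2 0.30, 0.04 to 0.56). Hoxa4 was the only HoxA member that was lower, with 130 and 58 counts (9.35 and 4.27 TPM, 2.26-fold lower, log2 -1.18, interval -1.65 to -0.72).

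From Hoxa5 on, every HoxA gene was higher in the library labelled Ahi1-/-. Hoxa5, which acts in lung and neck vertebrae, had 68 and 204 counts (3.97 and 12.2 TPM, 2.97-fold, log2 interval 1.17 to 1.99). Hoxa6 had 32 and 124 counts (1.57 and 6.15 TPM, 3.84-fold, 1.37 to 2.55), and Hoxa7 had 17 and 156 (0.95 and 8.96 TPM, 9.09-fold, 2.46 to 4.0). Hoxa5 and Hoxa6 thus lay above 1 TPM in WT, and Hoxa7 just under it. The 4 AbdB-like members were also under 1 TPM there, with Hoxa10 close to Hoxa7. Hoxa9 had 9 and 375 counts (0.32 and 13.2 TPM, 41.3-fold, 4.43 to 6.51). Hoxa10, which patterns the upper limb bones and the uterus, had 16 and 730 counts (0.75 and 34.9 TPM, 45.2-fold, 4.79 to 6.31), the highest level of any HoxA gene in that library. Hoxa11, required for the forearm and lower leg bones, had 3 and 530 counts (0.14 and 25.9 TPM, log2 ratio 7.45, 5.90 to 9.73). Hoxa13, required for the digits and the lower gut and urogenital tract, had 1 and 73 counts (0.08 and 6.33 TPM, log2 ratio 6.18, 3.65 to 11.50). The ratios of Hoxa11 and Hoxa13 are loosely bounded because WT held 3 counts or fewer. Together the 4 AbdB-like HoxA genes had 29 and 1708 counts, and 1.29 and 80.3 TPM.

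In HoxB, no gene was lower by the 2-fold rule, and the largest ratios were in the middle of the cluster. Hoxb2, a hindbrain gene, was level at 307 and 281 counts (24.5 and 23.7 TPM), and was the most abundant HoxB gene of the WT library. Hoxb3 had 320 and 508 counts (10.5 and 17.1 TPM, log2 ratio 0.65, interval 0.45 to 0.86). Hoxb4, also known from blood stem cells, had 65 and 225 (2.75 and 9.78 TPM, 3.43-fold higher, 1.37 to 2.20). The next 3 genes had 6 counts or fewer in WT. Hoxb5 had 3 and 108 counts (0.17 and 6.39 TPM, log2 ratio 5.16, 3.57 to 7.46), Hoxb6 had 6 and 288 (0.41 and 21.9 TPM, 47.6-fold, 4.43 to 7.03) and Hoxb7 had 2 and 194 (0.10 and 16.2 TPM, log2 ratio 6.59, 4.71 to 9.64). These trunk genes therefore went from under 1 TPM to above 6 TPM each.

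Hoxb8, Hoxb9 and Hoxb13 were higher by smaller ratios than Hoxb5, Hoxb6 and Hoxb7, from a higher start, though for Hoxb13 only slightly. Hoxb8, which acts in the trunk nervous system, had 27 and 337 counts (1.16 and 15.9 TPM, 12.4-fold, log2 interval 3.06 to 4.25). Hoxb9, a gene of the rib cage and forelimb level, had 73 and 1433 counts (2.96 and 59.1 TPM, 19.5-fold, 3.94 to 4.64). Hoxb9 was the second most abundant Hox gene of the library labelled Ahi1-/-, after Hoxc6. Hoxb13, the tail-end gene of the cluster, had 8 and 48 counts (0.65 and 3.98 TPM, 5.95-fold, 1.48 to 3.86), under the minimum of 50.

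HoxC held most of the Hox transcript of the WT library. Its 9 genes summed to 490 TPM in WT, which is 76.0% of all Hox TPM, and to 164 TPM or 29.9% in the library labelled Ahi1-/-. Hoxc6, a trunk gene that marks the forelimb level and thorax, was the most abundant Hox gene in both libraries, with 5440 and 1456 counts (225 and 60.8 TPM, 3.77-fold lower, log2 interval -2.00 to -1.83). In WT it lay above 96.3% of all genes by TPM. Hoxc4 had 1993 and 326 counts (99.1 and 15.5 TPM, 6.17-fold lower, -2.80 to -2.46). Hoxc5 had 1414 and 213 counts (56.3 and 8.69 TPM, 6.70-fold lower, -2.96 to -2.53). Both act at the level of the neck and upper thorax. Hoxc8, of the thoracic ribs and forelimb motor neurons, had 1688 and 521 counts (79.4 and 24.8 TPM, 3.27-fold lower, -1.85 to -1.57). Hoxc9 had 425 and 263 counts (27.2 and 17.2 TPM, log2 ratio -0.71, -0.93 to -0.48), within 2-fold.

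The other end of HoxC went the opposite way in the same libraries. Hoxc10, a gene of the lumbar level and hindlimb, had 38 and 407 counts (2.18 and 23.9 TPM, 10.6-fold higher, log2 interval 2.93 to 3.93). Hoxc11 had 5 and 54 counts (0.62 and 6.82 TPM, 10.7-fold, 2.11 to 5.10). Hoxc13, known for its role in hair and nails, had 4 and 77 counts (0.18 and 3.53 TPM, 19.1-fold, 2.84 to 6.17). Hoxc12 was not detected in WT, where 0 counts allow a level of up to 0.151 CPM, and had 22 counts in the other library. Against the floor of 3 counts in WT it was 7.27-fold higher (log2 interval from 2.44, with no upper end), below the minimum of 50 counts. Hoxc9 and Hoxc10 are neighbours, and their levels changed places in order, 27.2 against 2.18 TPM in WT and 17.2 against 23.9 TPM in the library labelled Ahi1-/-.

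HoxD was divided in the same place. Hoxd3, Hoxd4, Hoxd8 and Hoxd9 were all lower in the library labelled Ahi1-/-. Hoxd8 was the most abundant HoxD gene in WT, with 838 and 321 counts (44.8 and 17.6 TPM, 2.63-fold lower, log2 interval -1.59 to -1.21). Hoxd4 had 345 and 96 counts (14.7 and 4.18 TPM, 3.63-fold lower, -2.20 to -1.53), and Hoxd3, which acts in the first neck vertebrae, had 200 and 61 (7.48 and 2.34 TPM, 3.31-fold lower, -2.16 to -1.31). Hoxd9 had 237 and 72 counts (12.3 and 3.85 TPM, 3.32-fold lower, -2.13 to -1.35). These 4 ratios were alike, and their counting intervals overlap.

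The posterior HoxD genes, which build the forearm and digits, were at or near 0 in WT. Hoxd10 had 7 and 226 counts (0.41 and 11.1 TPM, 32.0-fold, log2 interval 3.93 to 6.33). Hoxd11 had 1 and 286 counts (0.03 and 8.01 TPM, log2 ratio 8.15, 5.66 to 13.46). Hoxd12 had 0 and 81 counts (listed at 0 and 3.56 TPM), 26.8-fold higher against the floor (log2 interval from 4.41, with no upper end). Hoxd13, the digit gene, had 6 and 756 counts (0.25 and 32.8 TPM, 125-fold, 5.84 to 8.42) and was the most abundant HoxD gene of the library labelled Ahi1-/-. The cluster sum hid these opposite moves, at 80.0 TPM in WT and 83.4 TPM in the other library.

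The upstream sequences of Hoxd9 and Hoxd10 are shown because these adjacent genes lay on opposite sides of the step. Those of Hoxb8, which was higher, and Hoxd4, which was lower, are shown because among the Hox windows at hand only these hold the TTTATNG core, a sequence bound by posterior HOX and CDX proteins. Each is the 250 bases before a RefSeq start in GRCm38.p6, on the plus strand, from chr2:74697513-74697762 (Hoxd9), chr2:74691641-74691890 (Hoxd10), chr11:96281655-96281904 (Hoxb8) and chr2:74721728-74721977 (Hoxd4). Capitals mark every match, on either strand, to TTTATNG, to TGATNNAT (the composite HOX and PBX core), to CCAAT and to TATAAA, and run together where matches overlap, as TTTATNG and TATAAA can.
Hoxd9: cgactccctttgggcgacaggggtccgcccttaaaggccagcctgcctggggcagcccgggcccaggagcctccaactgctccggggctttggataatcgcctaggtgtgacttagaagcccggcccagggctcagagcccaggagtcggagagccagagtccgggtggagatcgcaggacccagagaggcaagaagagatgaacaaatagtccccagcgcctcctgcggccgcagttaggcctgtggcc
Hoxd10: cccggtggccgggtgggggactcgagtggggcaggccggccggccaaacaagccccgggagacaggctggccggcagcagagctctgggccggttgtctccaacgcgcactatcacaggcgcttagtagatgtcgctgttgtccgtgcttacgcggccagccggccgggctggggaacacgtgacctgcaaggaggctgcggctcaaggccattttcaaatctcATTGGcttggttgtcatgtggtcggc
Hoxb8: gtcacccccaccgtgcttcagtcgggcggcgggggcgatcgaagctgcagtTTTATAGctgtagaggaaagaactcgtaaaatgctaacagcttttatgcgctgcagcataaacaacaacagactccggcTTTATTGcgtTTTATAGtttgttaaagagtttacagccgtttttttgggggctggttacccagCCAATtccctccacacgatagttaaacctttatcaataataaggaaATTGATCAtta
Hoxd4: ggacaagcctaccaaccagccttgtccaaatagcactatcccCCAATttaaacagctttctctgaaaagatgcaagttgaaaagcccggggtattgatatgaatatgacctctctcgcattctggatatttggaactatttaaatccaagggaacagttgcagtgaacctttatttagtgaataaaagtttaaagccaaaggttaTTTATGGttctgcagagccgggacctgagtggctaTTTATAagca
RefSeq windows were found for 22 of the 39 genes, 24 windows in all. The TTTATNG core was in 2 of the 24 windows, beside 9.81% of all 32851 windows of this length, and TGATNNAT was in 4, beside 7.68%. CCAAT was in 14 of 24, beside 33.9%, and TATAAA in 4, beside 12.4%. The window of Hoxd9 holds none of these letters, and that of Hoxd10 holds CCAAT alone. The Hox windows held a median of 12.5 CG dinucleotides, from 2 to 35, beside 6 in all windows, with 13 before Hoxd9, 20 before Hoxd10, 12 before Hoxb8 and 3 before Hoxd4. A match is a description of letters and not evidence of binding.

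Within paralogue groups, the cluster that supplied most of the transcript often differed between the libraries. In group 4, Hoxc4 supplied 78.7% of the TPM in WT against 46.0% in the library labelled Ahi1-/-, while Hoxb4 went from 2.19% to 29.0%. In group 5, Hoxc5 supplied 93.2% and 31.9%, and Hoxa5 6.57% and 44.7%. Thus Hoxa5 was the leading group 5 gene in the library labelled Ahi1-/-. In group 6, Hoxc6 led in both, with 99.1% and 68.5%, and Hoxb6 went from 0.18% to 24.6%. Group 8 lacks a HoxA gene, and Hoxc8 led it in both libraries, with 63.3% and 42.5%, while Hoxb8 had 0.925% and 27.3%. In group 9, the lead passed from Hoxc9 (63.5% in WT and 18.5% in the other library) to Hoxb9 (6.92% and 63.3%). These shares are of TPM and carry no counting interval.

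The posterior groups were scarce in WT and were led by HoxA and HoxD in the library labelled Ahi1-/-. Group 10 summed to 3.34 TPM in WT and 69.8 TPM in the other library, where Hoxa10 supplied 50.01%. Group 11 summed to 0.79 and 40.7 TPM, and Hoxa11 supplied 63.6% of the latter. Group 13 summed to 1.16 and 46.6 TPM, of which Hoxd13 supplied 70.3%. Group 12, which has only Hoxc12 and Hoxd12, was listed at 0 in WT and summed to 6.19 TPM in the library labelled Ahi1-/-. Group 7, which has only Hoxa7 and Hoxb7, was the scarcest of the trunk groups in WT, at 1.05 TPM, and stood at 25.2 TPM in the other library. Paralogues 1 to 3, in contrast, summed to 57.2 and 58.5 TPM.

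**Figure D3:**
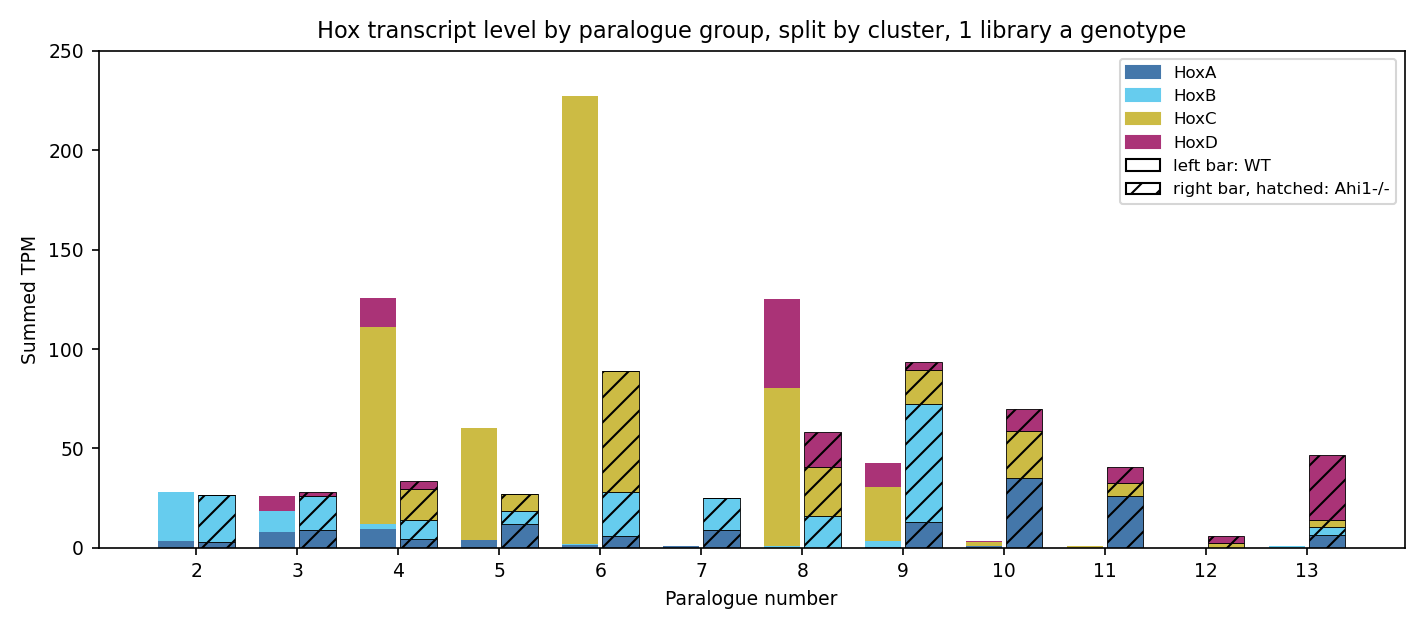
Summed TPM of paralogue groups 2 to 13, with the share of each cluster in colour, in the WT library (left bars) and the library labelled Ahi1-/- (right bars, hatched). The WT bars are tallest at paralogues 4, 6 and 8 and are mostly HoxC, and at paralogues 9 to 13 the hatched bars are taller.

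Over the whole family, the share of AbdB-like paralogues 9 to 13 in Hox TPM was 7.45% in WT against 46.8% in the other library, and that of paralogues 10 to 13 was 0.82% and 29.8%, respectively. Paralogues 4 to 8 supplied 83.7% and 42.5%. HoxA supplied 4.94% and 23.2%, HoxB 6.69% and 31.7%, and HoxD 12.4% and 15.2%. Most of the Hox transcript in WT thus came from a few HoxC genes, with Hoxc6 alone at 34.9%, while the most abundant gene of the other library, also Hoxc6, held 11.1%.

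The ratio rose with paralogue number in each cluster. As a description, Spearman's rho between paralogue number and log2 ratio was 0.93 over 11 genes of HoxA, 0.50 over 9 of HoxB, 0.93 over 9 of HoxC and 0.76 over 8 of HoxD. The members share 2 libraries and, within a cluster, a locus, and they are not independent. HoxB had the weakest rank order because Hoxb8, Hoxb9 and Hoxb13 had smaller ratios than Hoxb5, Hoxb6 and Hoxb7. The median log2 ratio was 1.94 in HoxA, 3.63 in HoxB, -0.71 in HoxC and 1.67 in HoxD, beside -0.01 over all genes, and 0.13, 0.14, -0.17 and -0.12 over the measured genes of chromosomes 6, 11, 15 and 2, which carry the clusters. In HoxD, 4 members lay below 0 and 4 above. Its median falls in the gap between Hoxd8 (-1.40) and Hoxd12 (4.74), and no member lies near it.

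Genes beside the clusters were compared over the 5 nearest table genes on either side, a window set after the values were seen. Of these 40 genes, 31 had the minimum count. There 4 were higher and 6 lower in the library labelled Ahi1-/-, against the same 16.0% and 10.3% of all genes. The other 21 lay within 2-fold, as did 8892 of all 12075 genes with that minimum. Of 8 HoxA neighbours with the minimum count, 6 lay within 2-fold, such as Skap2 on the anterior side (397 and 381 counts, log2 ratio -0.07, interval -0.28 to 0.13) and Hibadh on the posterior side (503 and 758, 0.58, 0.41 to 0.74). The other 2 were Jazf1, which was higher (43 and 93 counts), and Creb5, which was lower (350 and 142). All 10 neighbours of HoxC had ratios below 0, as did 7346 of all 14485 genes. Among these neighbours, Hnrnpa1, Cbx5, Atp5g2 and Atf7 were lower by the 2-fold rule. Cbx5, which encodes heterochromatin protein 1 alpha, had 8334 and 2754 counts (3.05-fold lower). The bearing of these neighbours on the lower HoxC genes was not tested. At the posterior end of HoxD, the homeobox gene Evx2 had 1 and 21 counts, in the direction of its neighbour Hoxd13 but under the minimum, and Lnpk beyond it had 794 and 867.

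**Figure D4:**
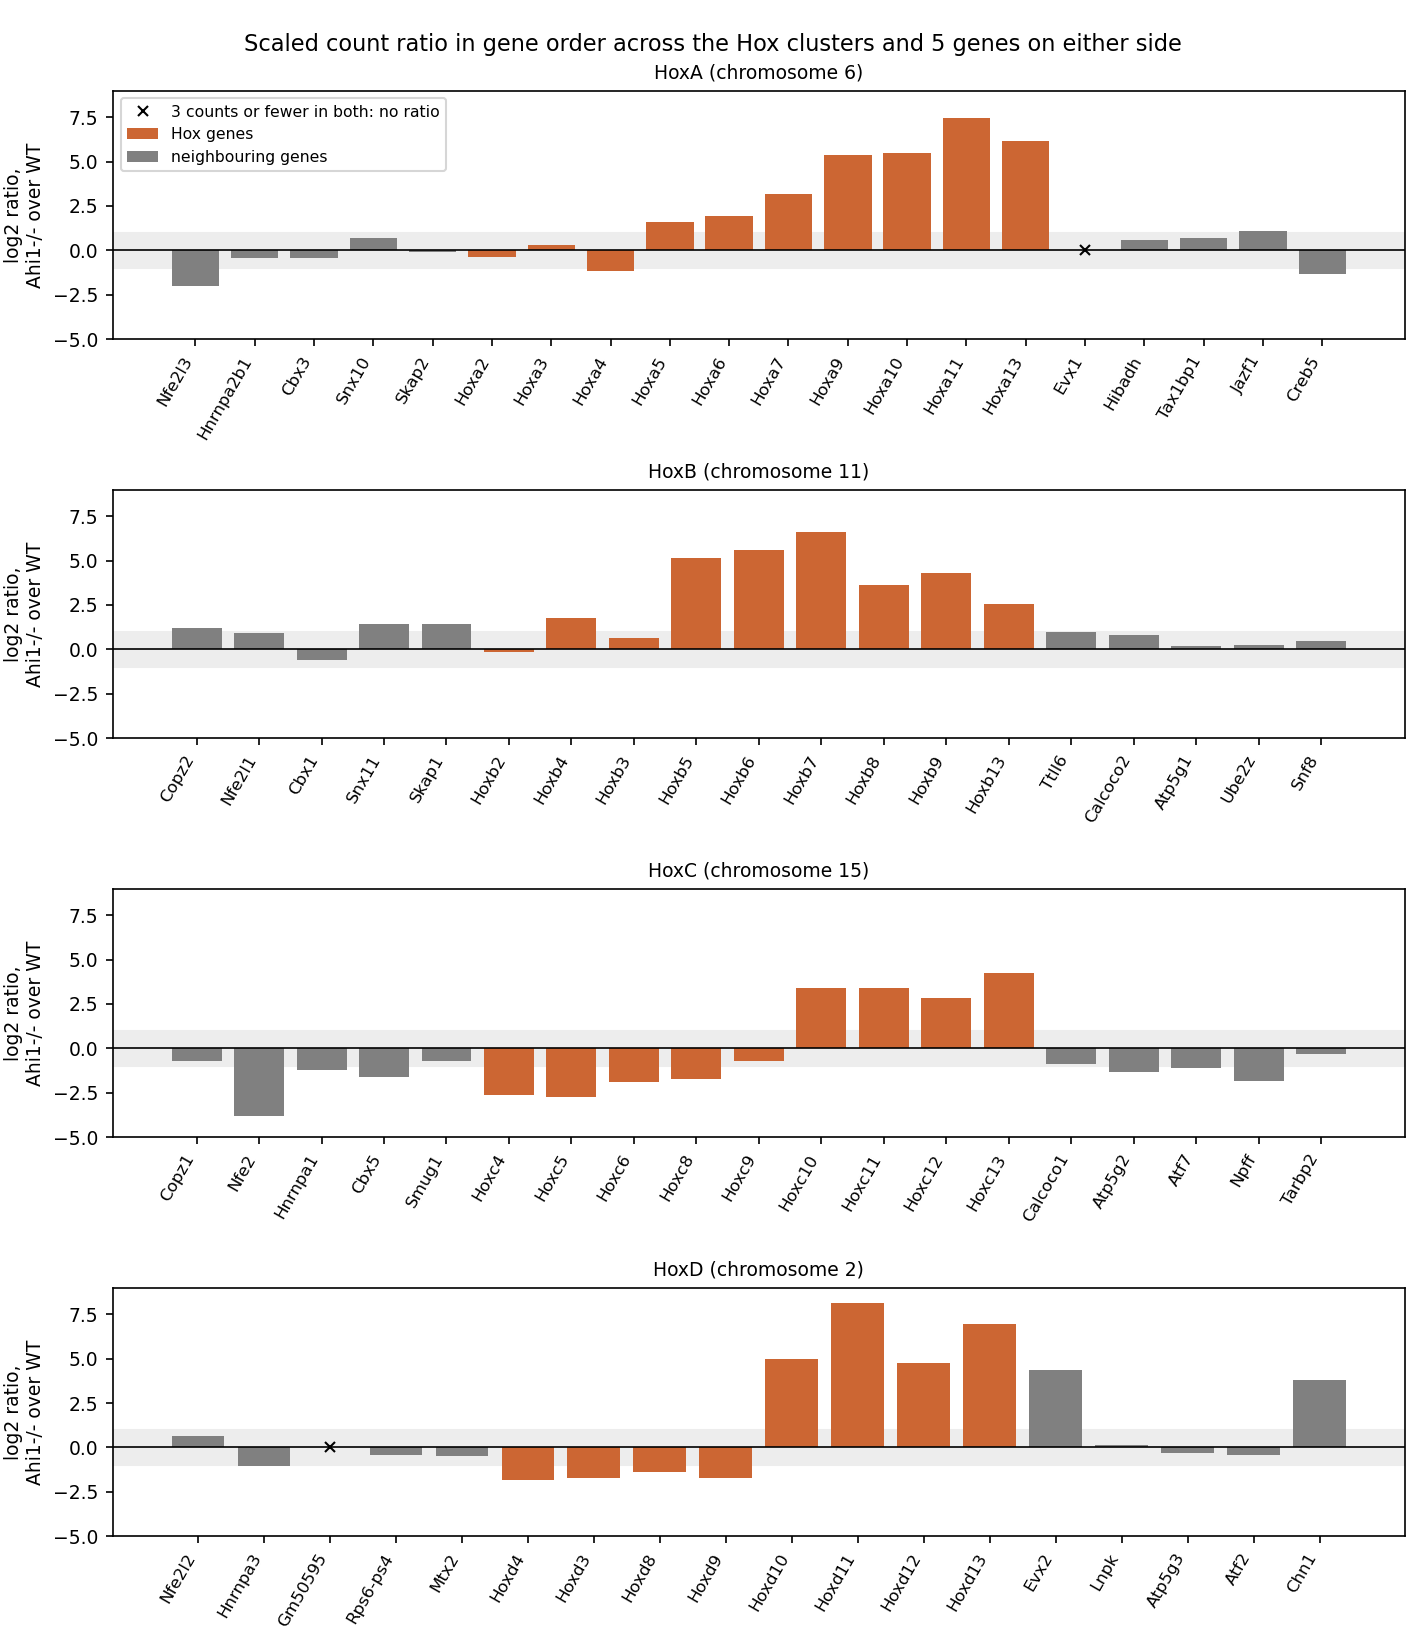
Log2 ratio of scaled counts, library labelled Ahi1-/- over WT, for the Hox genes of paralogues 2 to 13 (orange) and the 5 nearest table genes on either side (grey), in the order of RefSeq gene starts from the anterior to the posterior end. The bars of the Hox genes of paralogues 10 to 13 stand at 2.57 or more. Of 31 neighbours with the minimum count, 21 lie within 2-fold (grey band), as do 8892 of all 12075 such genes.

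Some Hox genes overlap, and the labels do not say whether counting used the strand. In the GENCODE M21 annotation, 11 of the 39 share sequence span with another Hox gene on the same strand, chiefly Hoxa3 with Hoxa4, Hoxa5 and Hoxa6, Hoxd3 with Hoxd4, and Hoxc5 with Hoxc6, Hoxc8, Hoxc9 and Hoxc10. Another annotated gene lies on the opposite strand of 14. Counts of these members may have been divided between partners. The length implied by counts over TPM was compared between libraries for the 17 members with at least 50 counts in both. It differed by over 0.1 on the log2 scale in Hoxa3 alone, 1.14-fold longer in the library labelled Ahi1-/-, where 4.50% of 10724 genes differed that much, and it was 1.07-fold longer for Hoxc4.

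The authors' table of FPKM values lists 3872 genes, or 22.4% of those in the count table, and it lists 31 of the 39 Hox genes. How its genes were chosen is not stated there. All 31 had the same direction in FPKM as in counts, with 22 higher and 9 lower in the library labelled Ahi1-/-. Hoxc6 had 110.6 and 26.7 FPKM, Hoxb9 1.45 and 25.95 FPKM, and Hoxd13 0.12 and 14.4 FPKM. The 8 members not listed belong to paralogues 1 to 3, apart from Hoxc9.

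HOX proteins bind DNA with cofactors of the PBX, MEIS and PREP families. Of 8 cofactor genes with the minimum count, 2 were higher and 0 were lower, where 16.0% and 10.3% of all genes were, so the count is near the background. Their median log2 ratio was -0.30 over 9. Meis3 had 91 and 516 counts (5.62-fold higher) and Pknox2, which encodes PREP2, had 37 and 234 (6.27-fold higher). The more abundant Meis2 (891 and 719 counts) lay within 2-fold, and was picked with its values in view.

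Of the genes that keep Hox clusters silent or active, 15 of 18 Polycomb genes and 10 of 12 activator genes lay within 2-fold. So did 8892 of all 12075 genes with the minimum count. Of 18 Polycomb genes, which silence Hox clusters, 0 were higher and 3 were lower, beside 16.0% higher and 10.3% lower over all genes. Their median log2 ratio was -0.45, and 15 of the 18 lay below 0, as did 7346 of all 14485 genes. Cbx7 had 391 and 39 counts (10.1-fold lower), the H3K27 methyltransferase gene Ezh2 had 1821 and 744 (2.47-fold lower) and Mtf2 had 1427 and 609 (2.36-fold lower). Of 12 genes of the MLL complexes and other activators, 0 were higher and 2 were lower, and the share lower is near the same background of 10.3%. Their median was -0.71, and 11 lay below 0. Men1, which encodes menin, had 4376 and 1484 counts (2.98-fold lower) and Psip1 had 5290 and 2324 (2.30-fold lower). Both groups had medians on the same side of 0. The bearing of these genes on the Hox values was not tested.

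Signals that act upstream of Hox genes include retinoic acid. Of 11 upstream genes with the minimum count, 3 were higher and 1 was lower, beside 16.0% and 10.3% of all genes. The median log2 ratio was 0.10 over 13. Aldh1a2, an enzyme that makes retinoic acid, had 0 and 90 counts (29.7-fold higher against the floor, log2 interval from 4.57). Aldh1a3, another, had 7 and 184 (26.1-fold higher). Cyp26b1, which degrades retinoic acid, had 89 and 925 counts (10.3-fold higher). Gmnn, which encodes the replication inhibitor geminin, had 785 and 247 (3.21-fold lower). The caudal factor genes Cdx1 (14 and 10 counts) and Cdx2 (1 and 4) were close to absent in both libraries.

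Among other genes of the HOX-like homeobox class, 1 had the minimum count. That gene, Meox2, had 2 and 94 counts (log2 ratio 5.54, interval 3.65 to 8.61). Of 11 genes reported as HOX targets and with the minimum count, 10 were higher and 0 were lower, where 16.0% of all genes were higher and 10.3% lower. The median over 12 was 2.56. The ephrin receptor gene Epha7, a target of HOXA13 and HOXD13 in the limb, had 1 and 253 counts (log2 ratio 7.97, 5.48 to 13.28), and Epha3 had 10 and 737 (73.0-fold higher). Itga8, an integrin gene of kidney mesenchyme, had 0 and 540 counts (178-fold higher against the floor, log2 interval from 7.18). Hand2, a posterior limb bud gene, had 0 and 383 (127-fold higher against the floor, from 6.68). Genes of limb bud position share Hand2, Sall1 and Shh with the reported HOX targets, and Hand2 and Sall1 are counted as higher in both. Of 21 limb bud genes with the minimum count, 13 were higher and 0 lower, against the same 16.0% and 10.3%. Their median was 3.41. Tbx4 of the hindlimb had 5 and 384 counts (76.1-fold higher), and Msx2 had 0 and 229 (75.7-fold against the floor, log2 interval from 5.93). Lmx1b, of the dorsal limb, had 3 and 158 (log2 ratio 5.71, 4.13 to 8.0). Tbx5 of the forelimb, named after its values were seen, had 5 and 241.

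**Figure D5:**
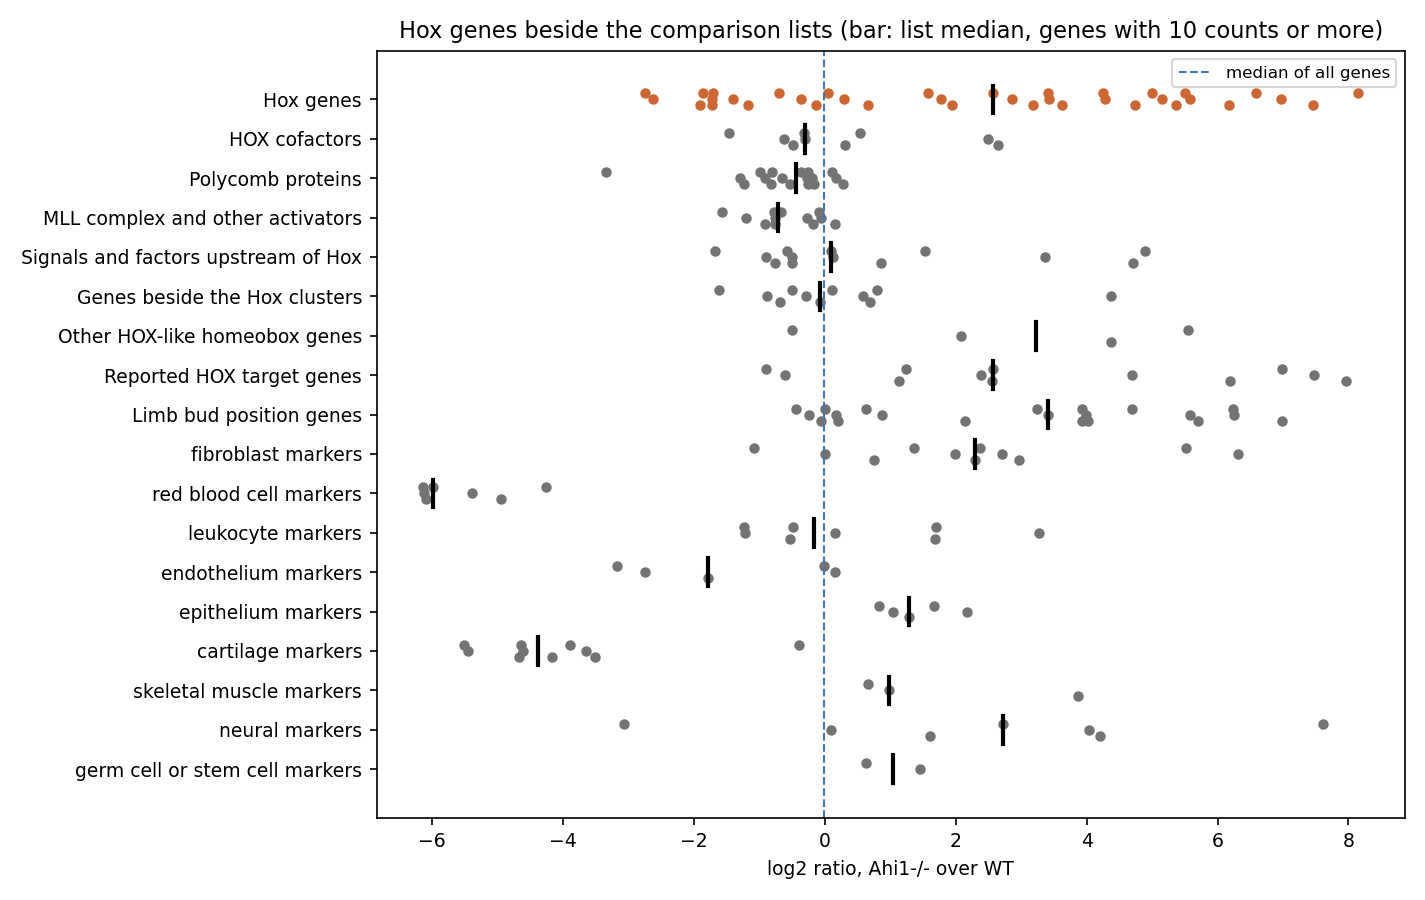
Log2 ratios, library labelled Ahi1-/- over WT, of the Hox genes (orange) and of the comparison lists (grey), for genes with at least 10 counts over both libraries, with list medians as black bars and the median of all genes as a dashed line. The Hox genes spread from -2.74 to 8.15 around a median of 2.57, the cofactor, Polycomb and MLL lists have medians of -0.30, -0.45 and -0.71, and the cartilage markers have a median of -4.39.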

How the data were processed

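The authors deposited expected counts and TPM for 17260 mRNA genes, and FPKM for 3872, 1 column a library, per the file headers. Per the submitters' processing notes, RSEM 1.2.12, HISAT2 2.0.4 and Bowtie2 2.2.5 were used, with build mm8, in roles that are not stated. Annotation, strand and filters are likewise not stated. All 6 value columns were used. CON was read as WT and EXP as Ahi1-/-.

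Expected counts were rounded and scaled by TMM (edgeR 4.0.16, R 4.3.3), with effective sizes of 19836009 and 20013980. Intervals of ratios are exact (Clopper-Pearson, from the fraction of a gene's counts found in each library). A count of 0 was set to a floor of 3 counts (0.151 CPM in WT, 0.15 CPM in the other library). Genes at 3 counts or fewer in both libraries got no ratio. Python 3.11.15, pandas 2.3.3 and scipy 1.17.1 were used. Full values are given for members at least 2-fold apart with 50 counts, and for those within 2-fold with 500. From each comparison list come up to 4 members with the largest ratio, or 2 where none was called. Members named outside this rule were chosen after their values were seen. For the noncoding RNAs of the clusters, 0 of 13 were found by symbol. Germ cell markers (3 of 7 found) summed to 0.96 and 1.92 TPM. The values of 1 Hox gene and 1 cofactor gene are not reported here. Members, lists and rules were chosen with earlier results of these data known, so none is independent evidence. The calculation was tested on simulated data. Gene order and names come from RefSeq on GRCm38.p6. Since the notes name another build, the only coordinates printed are those of RefSeq sequences. Alternatives covered scaling (DESeq2 1.42.0 size factors, upper quartile, total counts), TPM ratios, rounding, floor, minimum counts, fold and chromosome centring.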

Additional observations from a re-analysis of the deposited data

How the results depend on the processing

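Of 95 alternative values, 87 kept their direction and lay within the counting interval, or within 1.5 times for counts. Those with a minimum of 1 count summed could not differ. The only Hox genes under 10 counts, Hoxb1 and Hoxd1, have no ratio. The median log2 ratio of paralogues 1 to 3, -0.05, turned to 0.0074 with upper-quartile scaling and 0.0375 with TPM ratios, so it has no direction. With 200 counts as the minimum, 12 Hox genes were higher instead of 20, and at 4-fold 2 were lower instead of 9 (the rules admit fewer genes). The HoxC median was -1.21 instead of -0.71 with at least 50 counts summed, which leaves out Hoxc12. Summed as CPM, HoxC had a log2 ratio of -1.73 instead of -1.58 in TPM, and HoxD 0.21 instead of 0.06. The rank correlation in HoxD was 0.81 instead of 0.76 with TPM ratios, and the cause was not tested. Scaling by total counts shifted every log2 ratio by -0.11. No paired analysis was possible because each genotype has 1 library. Depth limits the ratios of Hoxa11, Hoxa13, Hoxb5, Hoxb7, Hoxc12, Hoxd11 and Hoxd12, with 3 counts or fewer in WT.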
